A study of Mus musculus with 7 samples.

Results

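Heat shock proteins and chaperones were taken from the liver expression table as every gene whose symbol belongs to the Hsp90, Hspa, Hspb, Hspd, Hspe, Hsph, Dnaja, Dnajb, Dnajc, Cct2 to Cct8 or Pdia series, which gave 87 of 21706 listed genes. By the known place of their proteins, 49 were assigned to the cytosol and nucleus, 9 to mitochondria and 17 to the endoplasmic reticulum (ER), and 12 divergent or uncertain members were left without a place. The livers came from male mice of the inbred C57BL/6 strain, 8 weeks old, that received intraperitoneal injections for 2 weeks of either a control oligo (4 libraries, controls 1 to 4) or tsRNA-Glu-CTC Oligo-1 (3 libraries). The oligo is a synthetic copy of a fragment of a glutamate transfer RNA. According to the study's methods, all animals ate a semisynthetic diet low in cholesterol, and libraries came from single mice. Expression was given as TPM, a share of each library corrected for transcript length, so that levels of different genes can be set side by side.

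Chaperones bind unfolded proteins, keep them from aggregating and release them for folding. In the cytosol HSP70 and HSP90 work in turn with J-domain proteins (the Dnaj genes), which bring clients to HSP70, while the CCT ring folds actin and tubulin inside a chamber and small heat shock proteins hold unfolded clients. Mitochondria and the ER have HSP70 proteins of their own (Hspa9 and Hspa5), and the ER adds the protein disulfide isomerases (Pdia genes), which form and shuffle disulfide bonds in the many plasma proteins that hepatocytes secrete. Heat shock factor 1 induces the cytosolic set during protein stress, and ATF6 and XBP1 induce the ER set in the unfolded protein response.

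Both regulators have known DNA elements, whose letters do not depend on the expression values. These elements were searched on both strands in the 250 bases before the RefSeq transcript start. The ER stress response element, CCAAT and CCACG with 9 free bases between them, was present in the windows of 4 of 15 ER genes with a RefSeq promoter (Hspa5, Hsp90b1, Pdia6 and Dnajc3), in 0 of 41 cytosolic and 0 of 6 mitochondrial ones, and in 0.113% of 32851 promoters of all genes. A heat shock element of 3 units, GAA, TTC and GAA with 2 free bases between neighbours, was present in 2 of 71 members with a promoter (Dnajb6 and Hspe1) and in 0.466% of all promoters. Its leading pair of units, GAA and TTC, was present in 9 of 71 members (12.7%), against 6.69% of all promoters. These were Hspa1a, Hspa1b, Hspb1, Dnaja1, Dnajb6, Hspe1, Hspb3, Cct8l1 and Dnajc27, of which Hspb3, Cct8l1 and Dnajc27 were too low to be tested for expression. The trailing pair of the element, TTC and GAA, was present in 5 of 71 members (7.04%) and in 7.17% of all promoters. Each member was counted at a single start, whereas the shares of all promoters count every start, so the bases of these shares differ. The elements of the ER genes and of Dnajb6 are written here with their flanks, 5′ to 3′ on the strand of the gene, from RefSeq on build GRCm38.p6, with the element in capitals. They lie at chr2:34772020-34772048 (+) for Hspa5, chr10:86705633-86705661 and chr10:86705528-86705556 (-) for Hsp90b1, chr12:17266486-17266514 (+) for Pdia6, chr14:118937822-118937850 (+) for Dnajc3 and chr5:29735844-29735872 (+) for Dnajb6.
Hspa5: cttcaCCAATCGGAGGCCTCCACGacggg
Hsp90b1, distal: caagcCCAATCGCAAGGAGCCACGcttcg
Hsp90b1, proximal: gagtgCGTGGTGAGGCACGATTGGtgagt
Pdia6: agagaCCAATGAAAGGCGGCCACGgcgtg
Dnajc3: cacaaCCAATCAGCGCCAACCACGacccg
Dnajb6: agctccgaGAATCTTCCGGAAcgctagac
The proximal element of Hsp90b1 is written as its reverse complement, since it lies on the opposite strand. In the GENCODE M21 annotation, which starts Hspa5 and Dnajb6 further upstream than RefSeq, the elements of these 2 genes fall in their untranslated part (that of Dnajb6 also in the coding part of Gm5129 on the opposite strand), and the others overlap neither coding sequence nor UTR on either strand. A match to letters is a description of the sequence and not evidence of binding.

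The libraries differed in ways that the groups do not explain. Over the 10455 tested genes, the correlation between controls 1 and 4 was 0.988, and their correlations with the 5 remaining libraries were 0.928 to 0.947. The summed TPM of 12 Kupffer cell and macrophage markers was 819 in control 1, 1039 in control 4 and between 108 and 178 elsewhere, and that of 11 stellate cell and fibroblast markers was 399 and 367 against 98.3 to 112. Their part in the chaperone values was not tested. The 9 hepatocyte markers measured summed to between 70463 and 84312 TPM in every library. For other cell types, the 10 endothelial markers summed to 86.4 to 136 TPM in controls and 108 to 128 with oligo-1, and the 6 cholangiocyte markers to 22.3 to 52.5 and 23.0 to 54.6. The 9 lymphocyte markers summed to at most 20.9 TPM and the 8 neutrophil markers to at most 15.9, and Ms4a1, Ly6g, Mpo and Elane were among those listed at 0 in some libraries. The middle log2 fold change over all tested genes was -0.16 rather than 0, and a trimmed-mean scaling of each library moved it to 0.00. Both choices moved most fitted values of the chaperones. After scaling, 19 of the 70 tested members changed sign and 33 moved toward 0 by more than 1.5 times, and without controls 1 and 4 these numbers were 27 and 21.

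As deposited, the summed chaperone mRNAs were more abundant in controls 1 and 4 than in any other library, but this did not hold for control 4 after scaling. They made up 0.606% and 0.510% of the listed TPM there, 0.376% and 0.433% in controls 2 and 3, and 0.419%, 0.401% and 0.370% in the oligo-1 livers. The oligo-1 livers thus lay within or just below the range of the controls. After trimmed-mean scaling the sums were 4052, 3917, 4024 and 3576 TPM in controls 1 to 4 and 3915, 3480 and 3766 TPM in the oligo-1 livers, so that control 4 was the lowest control. Of the 87 members, 70 reached 1 TPM in at least 3 libraries and were tested. No member passed an adjusted p of 0.05 in limma (smallest adjusted p 0.605), as was the case for 0 of 10455 genes (0%). At an unadjusted p below 0.05, 4 members were lower with oligo-1 (Hspb8, Hspb2, Dnajb4 and Dnajb6, 4 of 70 against 4.25% of all genes) and 0 were higher (1.81% of all genes). Single libraries moved that count, and the share of all genes mostly moved the same way. The exception was the fit without oligo-1 liver 1, where 5 members were lower while the share of all genes fell to 2.36%. Without control 2, 16 members were lower (all genes 14.5%), and without control 3, 8 were (all genes 7.37%). The count was 1 without control 1 (2.04%), 2 without control 4 (2.34%), 1 without oligo-1 liver 2 (2.97%) and 2 without oligo-1 liver 3 (1.77%). After trimmed-mean scaling 3 members were lower (Dnajb4, Hspb2 and Hspb8, all genes 3.77%) and 3 higher (Dnajc28, Dnajc4 and Pdia5, all genes 4.8%). Without controls 1 and 4, 1 was lower (Hspb8, all genes 2.75%) and 2 were higher (Hspb11 and Pdia5, all genes 6.97%). The fitted value was lower with oligo-1 for 61 of 70 members, or 87.1%, against 73.6% of all genes. After trimmed-mean scaling it was lower for 42 of 70 members (60.0%, all genes 49.6%), and without controls 1 and 4 for 34 of 70 (48.6%, all genes 41.4%). Fewer cells of a type and less RNA per cell cannot be told apart in these whole-liver libraries.

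**Figure D1:**
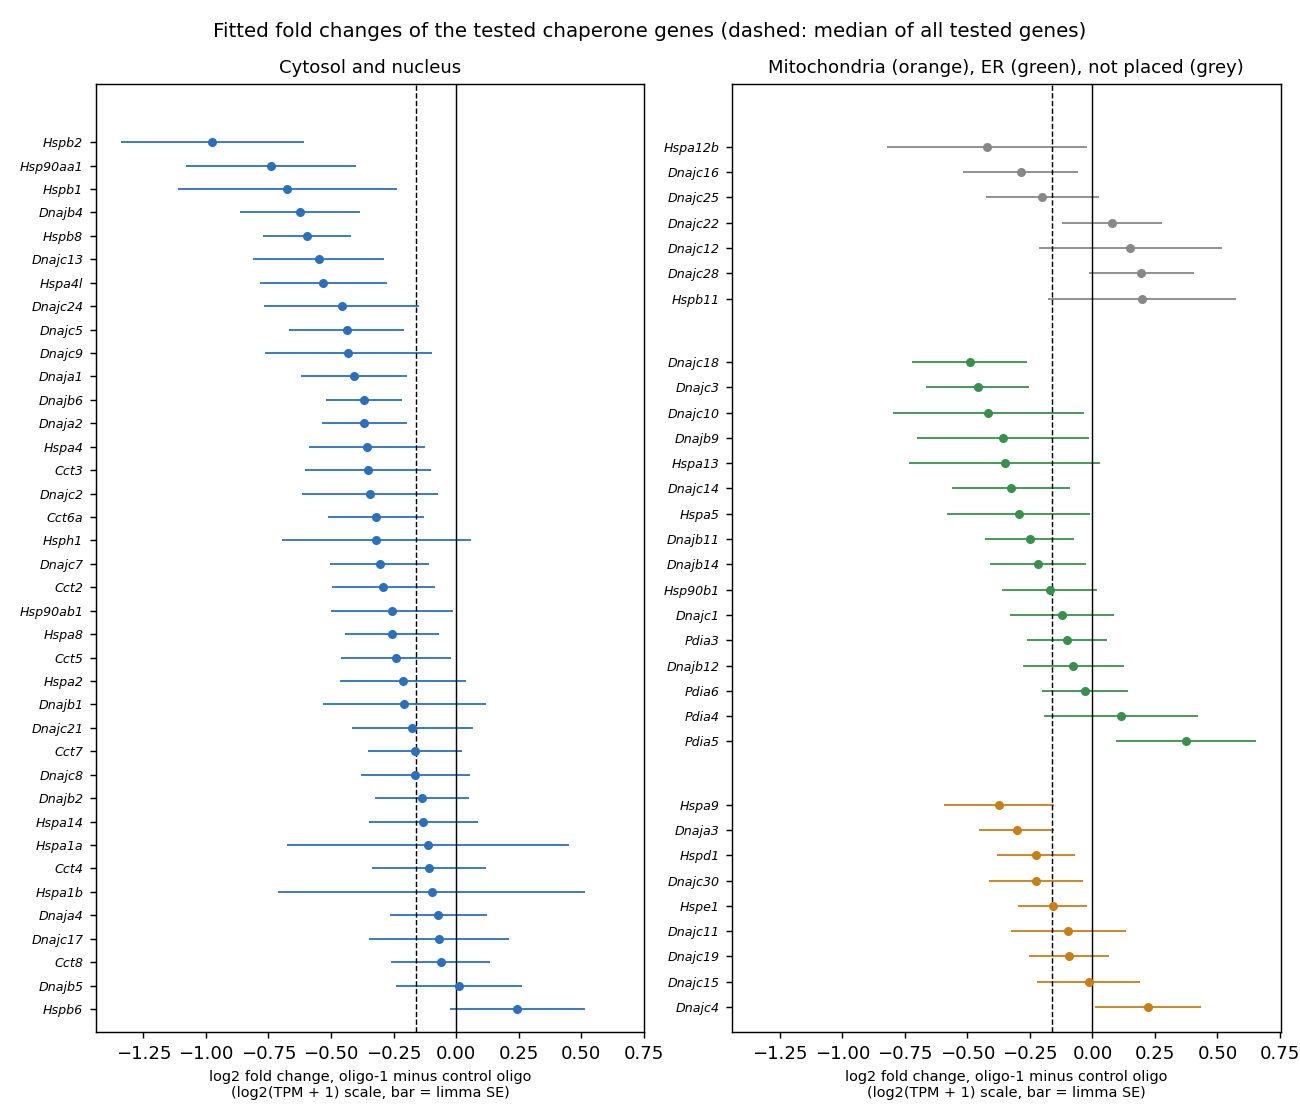
Fitted log2 fold change of each of the 70 tested chaperone genes, oligo-1 minus control oligo on the log2(TPM + 1) scale, with the limma standard error as a bar. Most points lie left of 0, and the dashed line marks the median of all 10455 tested genes at -0.16, so that the shift of the group itself is smaller than the distance to 0.

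In 7 of 70 members all 3 oligo-1 values lay below all 4 controls (Hspb8, Dnaja3, Dnajb6, Dnaja2, Dnajc5, Dnajb14 and Hspa4l), against 4.98% of all genes. In 0 tested members did all 3 lie above, against 2% of all genes. The count below was 22 without control 2 (all genes 20.7%), 15 without oligo-1 liver 1 (all genes 7.83%) and 13 without oligo-1 liver 2 (all genes 10.8%). After trimmed-mean scaling the count below was 4 (Hspb8, Cct6a, Dnajb4 and Dnajc5, all genes 4.52%) and the count above was 2 (Dnajc4 and Dnajc28, all genes 5.09%). Hspb8 and Dnajc5 were in the lower set on both scales.

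The contrast of compartments was made on summed TPM, which weights abundant genes, and on the median fold change, which weights genes equally. The 49 cytosolic genes summed to 2784, 1638, 1820 and 2224 TPM in controls 1 to 4 and to 1784, 1603 and 1597 TPM in the oligo-1 livers. The 9 mitochondrial genes summed to 949, 764, 818 and 946 TPM in the controls and to 756, 783 and 712 TPM with oligo-1. The 17 ER genes summed to 1366, 802, 1089 and 1131 TPM in the controls and to 1053, 992 and 813 TPM with oligo-1. In each of these compartments all 3 oligo-1 sums lay below controls 1, 3 and 4, and the groups overlapped only through control 2. For the ER, control 2 was the lowest of all 7 libraries. The means were 2116 ± 508 and 1661 ± 106 TPM (SD, n = 4 and 3) for the cytosol, 869.6 ± 93.0 and 751 ± 36.0 TPM for mitochondria, and 1097 ± 231 and 953 ± 125 TPM for the ER. The oligo-1 means were 78.5%, 86.3% and 86.8% of control. These differences of -455, -119.1 and -144.6 TPM shrank to -67.6 and -40.82 TPM for the cytosol and mitochondria without controls 1 and 4, and that of the ER turned to 6.84 TPM. After scaling, the mean sums were 1964 ± 151 and 1793 ± 164 TPM for the cytosol, 822 ± 81.4 and 808 ± 27.7 TPM for mitochondria, and 1023 ± 102 and 1023 ± 85.3 TPM for the ER. After scaling the group means differed by less than the larger SD for mitochondria and the ER, and by slightly more than either SD for the cytosol.

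**Figure D2:**
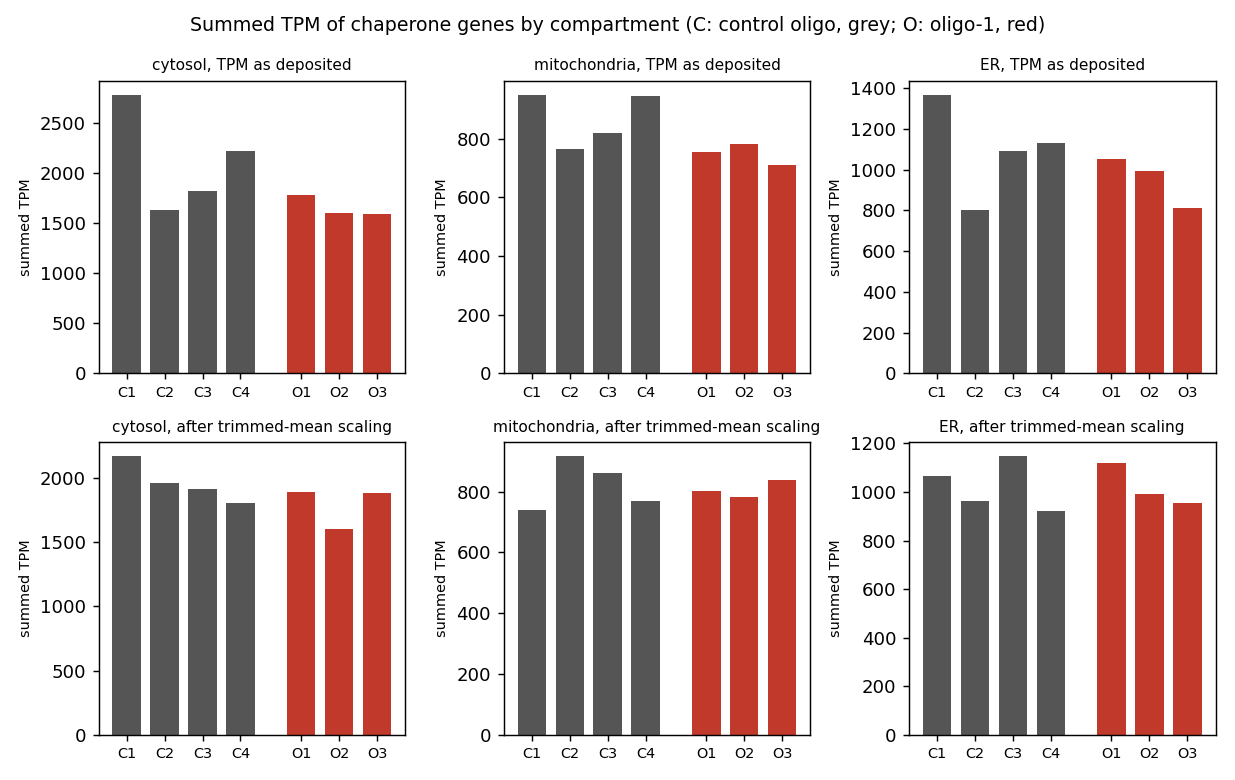
Summed TPM of the chaperone genes of each compartment in each liver (C1 to C4 control oligo, grey, and O1 to O3 oligo-1, red), as deposited in the upper row and after trimmed-mean scaling in the lower row. As deposited, C1 has the tallest bar for each compartment, with a mitochondrial sum of 949 TPM close to the 946 TPM of C4, and after scaling the ER means of the groups are both 1023 TPM.

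The median log2 fold change was -0.30 over 38 tested cytosolic genes, -0.16 over 9 mitochondrial genes and -0.23 over 16 ER genes, against -0.16 for all genes. Relative to all genes, these were -0.14, 0.00 and -0.07. After scaling the medians were -0.12, 0.03 and -0.08, and without controls 1 and 4 they were 0.00, -0.08 and 0.01, where the median of all genes was 0.06. The lower cytosolic median thus depended on controls 1 and 4, and no difference between compartments was tested.

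**Figure D3:**
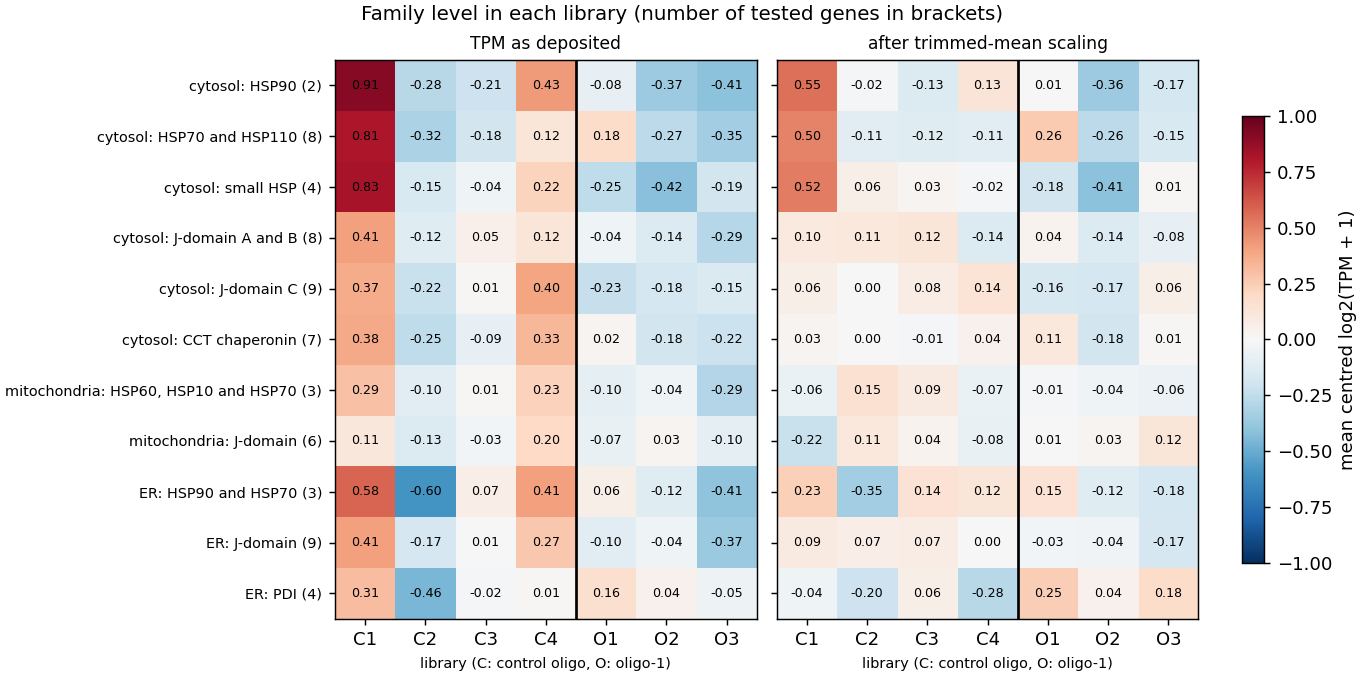
Mean over the tested genes of each chaperone family of log2(TPM + 1) centred on each gene's mean across libraries, for each library as deposited (left) and after trimmed-mean scaling (right). As deposited, C1 is the highest library for 9 of 11 families and C4 for the other 2, and after scaling the HSP90, HSP70 and small heat shock protein families of the cytosol remain highest in C1, at 0.55, 0.50 and 0.52.

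Among the small heat shock proteins, the member with the smallest p of all chaperones was Hspb8 (mm10 chromosome 5, 116408491 to 116422864), which pairs with BAG3 to direct misfolded proteins to autophagy. It was at 177, 124, 136 and 136 TPM in controls 1 to 4 and at 83.5, 107 and 91.9 TPM in the oligo-1 livers. Every oligo-1 value lay below every control, and the oligo-1 mean was 65.6% of control (143 ± 23.5 and 94.0 ± 11.7 TPM, SD). The log2 fold change was -0.60 (SE 0.18, unadjusted p = 0.0077, limma adjusted p = 0.605), which ranked 132 of the 10455 genes by p. Hspb8 kept an unadjusted p below 0.05 in all 14 alternatives run, with a log2 fold change between -0.69 and -0.41. In the limma fit it was the only member to meet the pair of thresholds used by the study (a fold above 1.5 at an unadjusted p below 0.01). Of all genes, 0.832% met that pair on the lower side and 0.641% on the higher side. No member met that pair after scaling, with the replicate number as a block, without controls 1 and 4, or in 6 of the 7 fits that left out a single library, and 4 members met it in the remaining fit, without control 2. The study's own list of changed genes, from a count-based test, does not hold Hspb8. It holds Dnajc4 as higher, though at a fold below the stated 1.5. Bag3, the partner of HSPB8 and itself a heat shock target, was at 24.9, 9.07, 14.2 and 16.9 TPM in the controls and at 11.6, 9.32 and 8.55 TPM with oligo-1. Its values overlapped between the groups through control 2 (log2 fold change -0.60, SE 0.30, unadjusted p = 0.076, limma), and the value was -0.20 without controls 1 and 4.

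Hspb1, the actin-binding small heat shock protein, varied widely between libraries, with 77.4, 29.3, 16.3 and 46.4 TPM in the controls and 27.5, 19.0 and 21.5 TPM with oligo-1. All 3 oligo-1 values lay inside the range of the controls, and its log2 fold change of -0.67 (SE 0.44) was 0.03 without controls 1 and 4. Hspb2, a muscle small heat shock protein, was scarce, at 2.76, 0.379, 1.19 and 1.83 TPM in the controls, listed at 0 in oligo-1 livers 1 and 2 and at 0.776 TPM in the third. Its fitted log2 fold change of -0.98 (SE 0.37, unadjusted p = 0.025, limma) rests on values near the filter and moved between -2.72 and -0.52 over 13 alternatives, and its unadjusted p was 0.156 without controls 1 and 4. Hspb6, which is abundant in muscle, was the exception among the 4 tested members, with 4.57 ± 1.52 TPM for controls, against 5.49 ± 1.23 TPM for oligo-1 (log2 fold change 0.25, SE 0.27). The 7 small heat shock proteins together summed to 264, 158, 159 and 188 TPM in the controls and 118, 130 and 119 TPM with oligo-1, most of which was Hspb8.

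**Figure D4:**
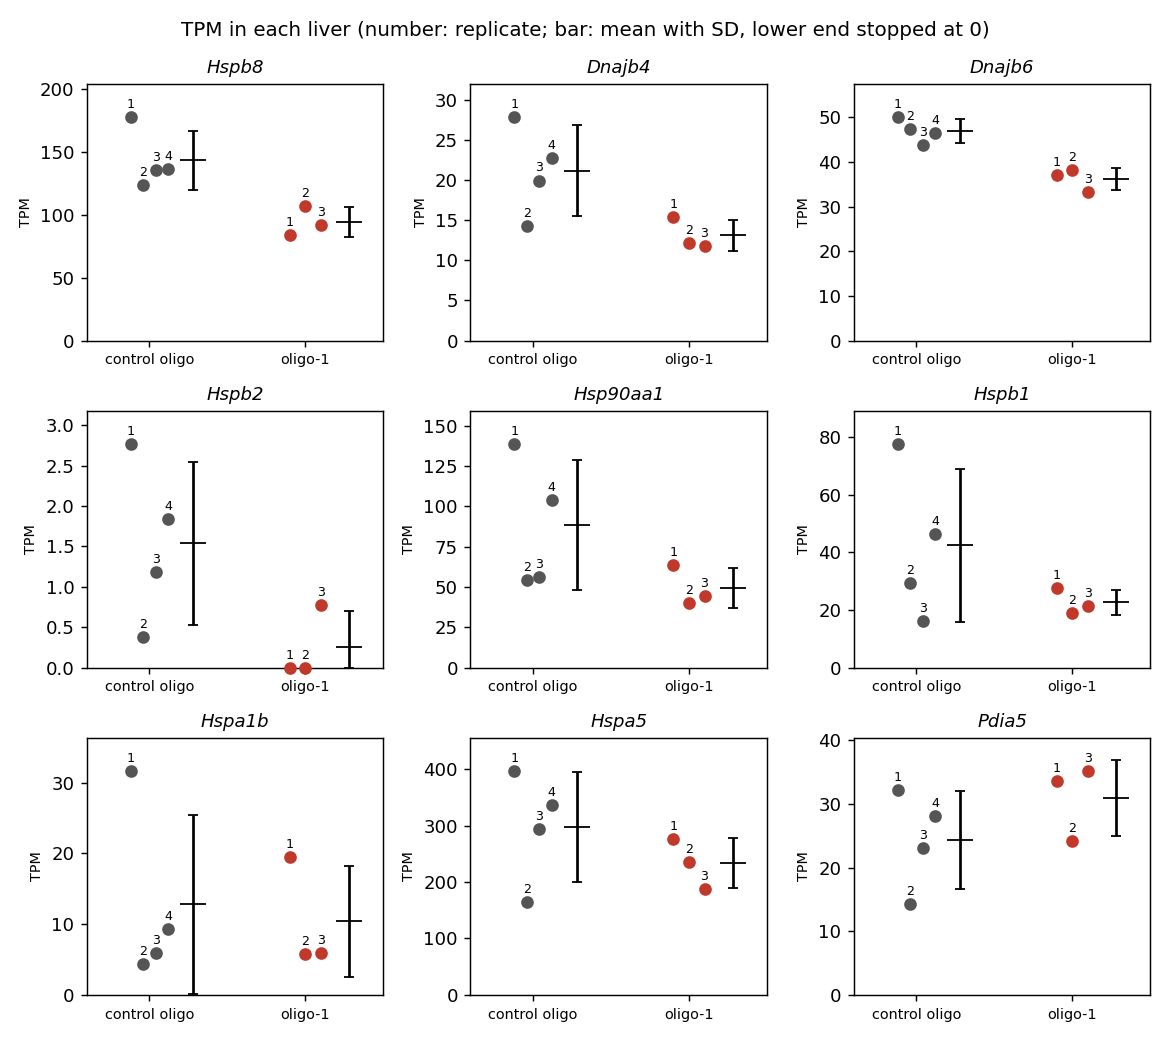
TPM of 9 chaperone genes in each liver, with the replicate number above each point and the group mean with SD as a bar whose lower end stops at 0. The oligo-1 points of Hspb8 and Dnajb6 all lie below the controls, those of Hsp90aa1, Hspb1 and Hspa1b overlap with the controls, and those of Pdia5 lie at 24.1 to 35.1 TPM against 14.2 to 32.1 TPM in controls.

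As deposited, the 2 cytosolic HSP90 genes separated controls 1 and 4 from the rest. After scaling they summed to 464, 331, 308 and 338 TPM in controls 1 to 4 and to 333, 305 and 317 TPM with oligo-1. Control 4 then lay close to the rest. Hsp90aa1, the heat-inducible form, was at 139, 54.6, 56.4 and 104 TPM in controls 1 to 4 and at 63.7, 40.2 and 44.6 TPM in the oligo-1 livers. Oligo-1 livers 2 and 3 lay below every control, and liver 1 lay above controls 2 and 3. The log2 fold change was -0.74 (SE 0.34, unadjusted p = 0.056, limma adjusted p = 0.768), and without controls 1 and 4 it was -0.19. Hsp90ab1, the constitutive form and the more abundant of the pair, was at 457, 221, 236 and 312 TPM in the controls and at 249.6, 264 and 225 TPM with oligo-1, so that all oligo-1 values lay inside the control range (log2 fold change -0.26, SE 0.25, but 0.10 without controls 1 and 4).

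All 8 tested HSP70 and HSP110 genes of the cytosol had a lower fitted value with oligo-1 (median -0.23), 5 of 8 after scaling and 4 of 8 without controls 1 and 4. Beside this and later family counts, the share of all genes was 73.6%, 49.6% after scaling and 41.4% without controls 1 and 4. Hspa8, the constitutive HSP70 and the most abundant chaperone mRNA of these livers, was at 882, 539.5, 602 and 722 TPM in the controls and at 587, 509 and 602 TPM with oligo-1. Its groups overlapped (log2 fold change -0.26, SE 0.19), and the value was -0.01 without controls 1 and 4. The inducible pair Hspa1a and Hspa1b stood out in single livers of both groups. Hspa1b was at 31.6, 4.41, 5.96 and 9.26 TPM in the controls and at 19.5, 5.80 and 5.98 TPM with oligo-1. Hspa1a was at 6.25, 0.326, 0.375 and 1.63 TPM in the controls and at 2.27, 0.504 and 1.30 TPM with oligo-1. Control 1 and oligo-1 liver 1 were the highest of their groups for both genes, and neither differed between groups beyond the replicate spread (log2 fold changes -0.10, SE 0.61, for Hspa1b and -0.11, SE 0.56, for Hspa1a). Their coding sequences were 99.4% identical in GENCODE M21, with 11 of 1929 aligned positions differing, so the split of reads between them is uncertain. Hspa4l, an HSP110-type exchange factor, lay lower in all oligo-1 livers at 2.77, 2.57 and 1.39 TPM against 4.70, 2.89, 4.13 and 2.92 TPM (log2 fold change -0.53, SE 0.25, unadjusted p = 0.065, limma). Its relative Hsph1, which is heat inducible, was at 31.6, 9.79, 13.3 and 14.9 TPM in controls 1 to 4 and at 18.2, 12.2 and 8.64 TPM with oligo-1. Hspa4, the constitutive relative, averaged 26.1 ± 6.66 TPM for controls, against 19.8 ± 2.48 TPM for oligo-1 (log2 fold change -0.36, SE 0.23, but -0.06 without controls 1 and 4).

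Among the J-domain proteins of types A and B, 2 reached an unadjusted p below 0.05. Dnajb6, which suppresses the aggregation of polyglutamine proteins and is the gene with the heat shock element printed above, was even across controls, at 50.0, 47.5, 43.8 and 46.5 TPM, and lower in each oligo-1 liver, at 37.1, 38.1 and 33.3 TPM. As deposited the groups did not overlap, and controls 1 and 4 did not stand apart for this gene (47.0 ± 2.60 and 36.2 ± 2.50 TPM, SD). Its log2 fold change was -0.37 (SE 0.15, unadjusted p = 0.039, limma adjusted p = 0.768). The value was -0.18 after scaling, with an unadjusted p of 0.287, and -0.33 without controls 1 and 4 (unadjusted p = 0.080, limma). Scaling lowered controls 1 and 4 and raised controls 2 and 3, so that the controls of Dnajb6 were no longer even and the groups overlapped. Dnajb4, an HSP70 partner, was at 27.8, 14.2, 19.9 and 22.7 TPM in the controls and 15.4, 12.2 and 11.8 TPM with oligo-1. Oligo-1 liver 1 lay above control 2 (log2 fold change -0.62, SE 0.24, unadjusted p = 0.028, limma adjusted p = 0.768), and after scaling no values overlapped (unadjusted p = 0.016). Without controls 1 and 4 the log2 fold change of Dnajb4 was -0.35 (unadjusted p = 0.144, limma). Dnaja2, which works with HSPA8 in refolding, was at 51.2, 40.6, 39.0 and 48.0 TPM against 36.9, 34.2 and 31.7 TPM (log2 fold change -0.37, SE 0.17, unadjusted p = 0.058, limma), and the value was -0.18 after scaling.

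Dnaja1, the most abundant J-domain gene, was at 157, 118, 143 and 108 TPM in the controls and at 125, 98.8 and 75.8 TPM with oligo-1, with overlap (log2 fold change -0.41, SE 0.21, but -0.22 after scaling). Dnajb1, the J-domain partner that is induced with HSP70, was at 18.1, 6.37, 11.4 and 9.62 TPM against 11.9, 9.35 and 6.77 TPM, and its log2 fold change of -0.21 (SE 0.32) was 0.08 without controls 1 and 4. All 9 tested type C genes of the cytosol had a lower fitted value (median -0.35), 7 of 9 after scaling and 4 of 9 without controls 1 and 4. Dnajc5, the cysteine string protein of secretory vesicles, was at 13.2, 7.69, 7.95 and 10.8 TPM in controls and at 7.45, 7.13 and 6.16 TPM with oligo-1. These groups were separated by a narrow gap, and the log2 fold change was -0.44 (SE 0.23, unadjusted p = 0.089, limma), but -0.16 without controls 1 and 4. Dnajc13, an endosomal J-domain protein, averaged 6.01 ± 1.94 TPM for controls, against 3.66 ± 0.504 TPM for oligo-1 (log2 fold change -0.55, SE 0.26, unadjusted p = 0.064, limma).

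The CCT ring followed the libraries more than the groups. Its 8 listed genes include the scarce paralog Cct6b and leave out the subunit gene Tcp1, which falls outside the symbol series. They summed to 476, 301, 338 and 456 TPM in the controls and to 367, 317 and 305 TPM with oligo-1. The oligo-1 livers thus lay between control 2 and control 4. Tcp1 was at 85.5, 62.3, 66.1 and 76.9 TPM in the controls and 69.8, 64.0 and 51.9 TPM with oligo-1 (log2 fold change -0.23, SE 0.18, but -0.04 after scaling). All 7 tested genes among the 8 had a lower fitted value (median -0.24), but 4 of 7 after scaling and 3 of 7 without controls 1 and 4. After scaling the controls summed to 371, 361, 356 and 371 TPM, and the oligo-1 livers to 390.2, 317 and 359 TPM. The subunit of smallest p was Cct6a, at 67.7, 44.5, 50.1 and 64.9 TPM in the controls and 48.3, 43.9 and 41.8 TPM with oligo-1 (log2 fold change -0.32, SE 0.19, unadjusted p = 0.128, limma), and its value was -0.08 without controls 1 and 4. Cct6b, its testis-enriched paralog, was too low for the test but ran the other way, at 0.157 to 0.293 TPM in the controls and 0.460 to 0.535 TPM with oligo-1.

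In mitochondria the folding machinery of the matrix was abundant and even. Hspe1, which caps the HSP60 chamber, was at 318, 277, 297 and 321 TPM in the controls and at 272, 253 and 289.6 TPM with oligo-1. Hspd1, HSP60 itself, was at 217, 167, 181 and 197 TPM in the controls and at 165, 179 and 145 TPM with oligo-1. In both genes the groups overlapped only through control 2 (log2 fold changes -0.16, SE 0.14, and -0.23, SE 0.16), and the value of Hspe1 was 0.03 after scaling. The 2 genes are divergent neighbours whose annotated ends overlap by 112 bases on chromosome 1 (Hspd1 from 55077835 to 55088243 on the minus strand, Hspe1 from 55088132 to 55091307 on the plus strand), so a few reads of their first exons could be shared. Hspa9, the matrix HSP70 that also pulls proteins through the inner membrane, averaged 182 ± 38.7 TPM for controls, against 140.0 ± 30.5 TPM for oligo-1 (log2 fold change -0.37, SE 0.22, but -0.11 without controls 1 and 4).

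Dnaja3, the J-domain partner of HSPA9, was as deposited the most even across controls of the 7 members that separated the groups. Its highest control value was 1.08 times the lowest. Dnaja3 was at 49.0, 48.1, 47.3 and 45.2 TPM in the controls and at 38.0, 40.9 and 36.0 TPM in the oligo-1 livers. As deposited no values overlapped, and controls 1 and 4 were like controls 2 and 3. The log2 fold change was -0.30 (SE 0.15, unadjusted p = 0.073, limma adjusted p = 0.768), with -0.31 without controls 1 and 4 but -0.12 after scaling. Scaling divided controls 1 and 4 by 1.28 and 1.23, and controls 2 and 3 by 0.835 and 0.950. After scaling the controls were thus no longer even, and the groups overlapped. Dnajc4 was the one mitochondrial member with a higher fitted value, at 13.7, 8.37, 13.1 and 13.3 TPM in the controls and 13.6, 14.7 and 13.9 TPM with oligo-1 (log2 fold change 0.22, SE 0.21). Its oligo-1 values lay close to 3 of the controls, and after scaling they lay above all of them (log2 fold change 0.40, unadjusted p = 0.021, limma). The study's own list, from a count-based test, gives Dnajc4 as higher with oligo-1. Dnajc30, which in human cells is tied to the repair of respiratory complex I, averaged 14.2 ± 1.07 TPM for controls, against 12.1 ± 2.07 TPM for oligo-1 (log2 fold change -0.22, SE 0.19).

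In the ER the general folding factors had lower and the isomerases mixed fitted values, and none passed the adjusted threshold. All 3 HSP90 and HSP70 type genes had a lower fitted value (median -0.30), 2 of 3 after scaling and 0 of 3 without controls 1 and 4. Hspa5, the ER HSP70 also called BiP and a standard reporter of the unfolded protein response, was at 396, 165, 294 and 336 TPM in the controls and at 277, 236 and 188 TPM with oligo-1. All 3 oligo-1 values lay between control 2 and control 3 (log2 fold change -0.30, SE 0.29, unadjusted p = 0.328, limma). Hsp90b1, the ER HSP90 also called GRP94, was at 308, 189, 259 and 256 TPM in the controls and at 241, 233 and 193 TPM with oligo-1, again between controls 2 and 4, and its log2 fold change of -0.17 (SE 0.19) was 0.02 after scaling. As deposited, control 2 was the lowest control in 11 of 16 tested ER members, and in 70.0% of all 70 tested members against 55.1% of all genes. After scaling it was the lowest control in 6 of 16 tested ER members, and in 28.6% of all 70 against 26.7% of all genes.

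All 9 tested ER J-domain genes had a lower fitted value with oligo-1 (median -0.33), 7 of 9 after scaling and 5 of 9 without controls 1 and 4. Dnajc3, which binds unfolded proteins in the lumen and also restrains the kinase PERK, came closest to the threshold in the ER. It was at 58.4, 56.1, 59.7 and 49.3 TPM in the controls and at 49.5, 44.8 and 29.4 TPM with oligo-1. Oligo-1 liver 3 was far below the others and oligo-1 liver 1 level with control 4 (log2 fold change -0.46, SE 0.20, unadjusted p = 0.051, limma adjusted p = 0.768). The value was -0.51 without controls 1 and 4 and -0.28 after scaling. Dnajb9, a target of the XBP1 branch, was at 67.2, 20.96, 50.6 and 46.3 TPM in the controls and at 37.1, 35.6 and 27.5 TPM with oligo-1, all 3 inside the control range (log2 fold change -0.36, SE 0.35, and 0.02 without controls 1 and 4). Dnajb11, which serves BiP on nascent chains, averaged 47.7 ± 7.03 TPM for controls, against 39.8 ± 4.67 TPM for oligo-1 (log2 fold change -0.25, SE 0.18, but -0.07 after scaling). Dnajb14, a J-domain protein of the ER membrane, was scarce but separated the groups, at 2.93, 2.56, 2.38 and 2.72 TPM against 2.06, 2.24 and 2.10 TPM (log2 fold change -0.22, SE 0.19, unadjusted p = 0.281, limma). Dnajc18, which sits in the same membrane, averaged 2.84 ± 0.700 TPM for controls, against 1.71 ± 0.318 TPM for oligo-1 (log2 fold change -0.49, SE 0.23, unadjusted p = 0.060, limma, but -0.29 without controls 1 and 4).

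The 4 tested protein disulfide isomerases were divided, with 2 fitted values lower and 2 higher (median 0.04), and all 4 were higher after scaling (median 0.23). Pdia5 was at 32.1, 14.2, 23.0 and 28.03 TPM in the controls and at 33.6, 24.1 and 35.1 TPM with oligo-1. Oligo-1 livers 1 and 3 lay above every control, and liver 2 lay between controls 3 and 4. The log2 fold change was 0.37 (SE 0.28, unadjusted p = 0.214, limma), the largest positive value among the members, and it was 0.56 after scaling (unadjusted p = 0.031) and 0.72 without controls 1 and 4 (unadjusted p = 0.020). Pdia4, an ER stress target, was at 82.9, 30.8, 62.4 and 63.7 TPM in the controls and at 70.8, 63.7 and 51.1 TPM with oligo-1 (log2 fold change 0.12, SE 0.31). That sign turned to -0.17 without control 2. Pdia6, which acts with BiP, averaged 132 ± 13.1 TPM for controls, against 130.3 ± 21.9 TPM for oligo-1, and Pdia3, which works with calnexin and calreticulin on glycoproteins, averaged 118 ± 15.6 TPM and 109 ± 6.07 TPM. The log2 fold changes of both, -0.03 (SE 0.17) for Pdia6 and -0.10 (SE 0.16) for Pdia3, were within their standard errors and positive after scaling, at 0.16 and 0.08.

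The 4 ER genes with the stress response element printed above did not share a direction that held across scalings. Their log2 fold changes were -0.30 for Hspa5, -0.17 for Hsp90b1, -0.03 for Pdia6 and -0.46 for Dnajc3 as deposited. After scaling they were -0.11, 0.02, 0.16 and -0.28. Dnajc3 was thus the lowest of the set on both scales.

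Of the 12 members without an assigned place, 7 were tested, with 3 fitted values lower, 4 higher and a median of 0.08. Dnajc28 was at 2.81, 1.69, 2.26 and 2.31 TPM in the controls and at 2.60, 3.04 and 2.52 TPM with oligo-1, and it separated the groups only after scaling (unadjusted p = 0.036, limma). A total of 17 members were not tested, of which 4 were listed at 0 in every library (Dnajb8, Hspb3, Dnajc5b and Dnajc5g), and no value among the 17 exceeded 1.77 TPM. In contrast, 11 members averaged over 100 TPM and 44 over 10 TPM.

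Genes that work with the chaperones were followed in 4 lists. Of 22 genes listed as co-chaperones and heat shock factors, mostly cytosolic, 20 had a lower fitted value (median -0.21, all genes 73.6%). After scaling 15 did (median -0.04, all genes 49.6%). In limma, 1 of the 22 was lower at an unadjusted p below 0.05 (all genes 4.25%). That gene was Bag2, which inhibits the ubiquitin ligase CHIP, at 1.64, 2.56, 1.76 and 2.58 TPM in the controls and 0.916, 1.41 and 1.08 TPM with oligo-1 (log2 fold change -0.55, SE 0.22, unadjusted p = 0.033, limma adjusted p = 0.768), and it was no longer below 0.05 after scaling (log2 fold change -0.45, unadjusted p = 0.072). Hsf1, the heat shock factor, was at 10.8, 4.11, 8.20 and 7.02 TPM in the controls and 5.65, 8.63 and 7.70 TPM with oligo-1 (log2 fold change 0.01, SE 0.30). Of 29 genes of ER folding and the unfolded protein response, 20 had a lower fitted value (median -0.11), or 69.0% against 73.6% of all genes. In limma 0 reached an unadjusted p below 0.05 in either direction (all genes 4.25% lower and 1.81% higher). After scaling 10 were lower (median 0.08), or 34.5% against 49.6% of all genes. Atf6, the membrane sensor with the smallest p of that list, averaged 11.8 ± 2.29 TPM for controls, against 8.23 ± 2.25 TPM for oligo-1 (log2 fold change -0.49, SE 0.24, unadjusted p = 0.074, limma, but -0.30 without controls 1 and 4). Of 7 prefoldin genes, which hand actin and tubulin to CCT, 6 had a lower fitted value (median -0.16, all genes 73.6%), and 3 after scaling (all genes 49.6%).

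The list of 15 mitochondrial folding factors and proteases held the one partner gene below all the members in p. Clpx, the unfoldase of the ClpXP protease (mm10 chromosome 9, 65294260 to 65330658), was at 69.8, 52.2, 31.6 and 77.7 TPM in the controls and at 25.5, 22.9 and 22.9 TPM with oligo-1. All oligo-1 values lay below all controls and within a narrow range, while the controls spread widely with controls 1 and 4 on top. The log2 fold change was -1.17 (SE 0.29, unadjusted p = 0.0026, limma adjusted p = 0.443), -0.99 after scaling and -0.75 without controls 1 and 4, with an unadjusted p of at most 0.011 in the 14 alternatives. It passed the adjusted threshold in 1 of them, without control 3 (limma adjusted p = 0.029). Clpp, the proteolytic partner of CLPX, was at 68.7 to 75.7 TPM in the controls and 57.5 to 68.7 TPM with oligo-1 (log2 fold change -0.16). Lonp1, the other main matrix protease, was at 84.1, 46.8, 52.6 and 88.2 TPM in the controls and at 46.9, 55.3 and 33.6 TPM with oligo-1, where controls 1 and 4 alone stood above the rest. Of the 15 genes, 13 had a lower fitted value (median -0.16, all genes 73.6%), and 6 of 15 after scaling (all genes 49.6%).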

How the data were processed

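Liver mRNA was sequenced in 4 control and 3 oligo-1 libraries, grouped and numbered by the library names in the labels. The deposited values are TPM, for which the authors prepared Illumina libraries from total RNA and quantified protein-coding genes with kallisto (version not given in the sources used here), on mm10 per the submitters' processing notes. Since TPM holds no read depth, counting error could not be estimated and the depth behind each value is unknown. The study counts each library as 1 mouse, so p-values measure the spread between mice. The 87 members, their compartments and the lists (4 partner lists, 2 lists of other genes and 7 cell marker lists) were chosen with earlier results of these data known.

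Values were transformed to log2(TPM + 1), which understates changes of low genes, and the 10455 genes that reached 1 TPM in 3 or more libraries were tested with limma-trend (limma 3.58.1, R 4.3.3), 2-sided, without covariates, with Benjamini-Hochberg adjustment over all of them. The test was checked on simulated data. The study's count-based test could not be applied to TPM. Named genes were 20 fixed well-known chaperones, then the 3 tested members of smallest p in each family of a compartment and up to 3 genes of smallest p in each partner list. Hspb6, Hspb11, Hspb3, Dnajb8, Dnajb14, Dnajc5b, Dnajc5g, Dnajc27, Cct6b, Cct8l1, Hsf1, Tcp1 and Clpp were named after their values were seen.

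Alternatives were a pseudocount of 0.1, a minimum of 5 TPM, no filter, trimmed-mean scaling (divisors 0.835 to 1.28), robust eBayes, a replicate block, leaving out each library in turn, and leaving out controls 1 and 4. Positions come from GENCODE M21, which held 86 of 87 members. Promoter windows come from RefSeq (GRCm38.p6), which held 71 members, motif units are textbook consensus letters, and the start nearest the GENCODE end was used for each.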

Additional observations from a re-analysis of the deposited data

Results flagged for a closer look

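Dnajc4, which encodes a mitochondrial J-domain protein, was flagged because 1 control lay far from the other 3. Control 2 was at 8.37 TPM and controls 1, 3 and 4 were between 13.1 and 13.7 TPM, so the gap made up 0.885 of the range of the controls, past the 95% limit of the Dixon test. Of 45 sets of control values checked in this way, 1 was flagged, where chance alone flags about 1 in 20.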

How the results depend on the processing

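The count of members passing the adjusted threshold was 0 under all 14 alternatives, with limma. At an unadjusted p below 0.05, higher members numbered 1 with no filter (all genes 327 of 17562). They numbered 3 after trimmed-mean scaling (all genes 4.8%) and 2 without controls 1 and 4 (all genes 6.97%). Lower members numbered 7 with no filter (all genes 562 of 17562) and 1 without controls 1 and 4 (all genes 2.75%). When single libraries were left out they numbered 1 to 16 (all genes 1.77% to 14.5%). By the study's pair of thresholds the lower count of 1 became 0 after scaling, with the replicate block and without controls 1 and 4. When single libraries were left out it was 0 to 4 (all genes 0.402% to 2.82%). Members with all oligo-1 values above all controls numbered 1 with no filter, 2 after scaling (all genes 5.09%) and 10 of 70 without controls 1 and 4 (all genes 17.9%). When single libraries were left out they numbered 0 to 2 (all genes 2.58% to 4.22%). Those below numbered 4 after scaling (all genes 4.52%) and 7 to 22 when single libraries were left out (all genes 5.24% to 20.7%). The mitochondrial median was 0.029 after scaling, the cytosolic median 0.0026 without controls 1 and 4, and the mitochondrial difference in summed TPM, -119 as deposited, was -13.3 after scaling and -40.8 without controls 1 and 4. The cytosolic difference went from -455 to -171.2 and -67.6, and the ER difference from -144.6 to -0.56 and 6.84. The cause of these shifts was not tested.

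Of 60 genes followed, 44 kept their direction under every alternative run. Without controls 1 and 4 the log2 fold change reversed to 0.10 for Hsp90ab1, 0.73 for Hspa1a, 0.69 for Hspa1b, 0.12 for Hsph1, 0.032 for Hspb1, 0.080 for Dnajb1, 0.067 for Hspa5, 0.0007 for Hsp90b1, 0.020 for Dnajb9, 0.26 for Hspa13, 0.048 for Cct3 and 0.29 for Pfdn4. After scaling it reversed to 0.052 for Hspa1a, 0.0815 for Hspa1b, 0.029 for Hspe1, 0.018 for Hsp90b1, 0.085 for Pdia3 and 0.16 for Pdia6, and with a pseudocount of 0.1 to 0.047 for Hspa1a. Leaving out single libraries gave -0.40 to 0.41 for Hspa1a, -0.62 to 0.44 for Hspa1b, -0.43 to 0.030 for Dnajb1, -0.17 to 0.30 for Pdia4 and -0.10 to 0.12 for Pdia6.

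Replicate numbers did not pair the samples, since the deviations of same-numbered samples correlated at 0.078, -0.015 and -0.115. With the replicate block, in which control 4 stood alone and so did not bear on the fold changes, 86 of all genes but 0 members passed the adjusted threshold, and 4 members were lower at an unadjusted p below 0.05 (Dnaja1, Hsp90aa1, Hspb2 and Hspb8).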

Other observations

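Other gene groups that respond within hours were followed beside the chaperones. Of 11 tested genes of the circadian clock and its output, fitted values were higher in the treated livers for 7 (median 0.34), and in 3 of them (Dbp, Nr1d1 and Per3) no oligo-1 liver was as low as any control, against 2% of all genes. Without controls 1 and 4 the direction was gone, with 6 of 11 fitted values lower and a median of -0.0038. Dbp, an output transcription factor of the clock, was at 14.3, 46.5, 90.1 and 31.4 TPM in controls 1 to 4 and at 111, 122 and 119.7 TPM in the oligo-1 livers (log2 fold change 1.63, SE 0.49, limma adjusted p = 0.608, but 0.85 without controls 1 and 4). The controls differed among themselves by more than the gap between control 3 and the oligo-1 livers. Among 10 tested immediate early genes, 5 had a lower and 5 a higher fitted value. Atf3, a stress-induced transcription factor, reached 20.1 TPM in control 1 and 17.0 TPM in control 4, against 1.72 TPM in control 2, 1.28 TPM in control 3 and 0.159 to 0.650 TPM in the oligo-1 livers. Egr1 and Zfp36 ran the other way, with log2 fold changes of 0.97 and 0.78 (unadjusted p = 0.027 and 0.033, limma), and the highest value of each was in an oligo-1 liver.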
